A study of Mus musculus with 3008 samples.

Results

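The 40 genes described here encode actin and the proteins that build, cap, cut, bundle, move and anchor actin filaments. They were listed by name as actin and actin regulator genes, and all 40 are among the 23725 genes of the deposited table. Transcripts were counted in single Foxp3-GFP+ regulatory T cells (Tregs), which hold other immune cells in check, from the colon lamina propria and from the spleen of male mice aged 7 months of the strain B6 Foxp3-Ires-Gfp. All cells carried this reporter of Foxp3 transcription and were sorted as DAPI- TCRb+ CD4+ GFP+, so that every group rests on the same gate. The groups are colon 1 with 619 cells, colon 2 with 1772 cells and spleen with 617 cells, each 1 library made by inDrops, which tags the RNA of each cell in a droplet. Colon tissue was digested with collagenase and dispase, and spleen was broken up mechanically, so an effect of tissue and one of dissociation cannot be told apart. No label gives the animals, and colon 2 is a second replicate by its title but carries the first number in its sample type.

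Actin exists as free monomers and as filaments that grow at one end and are taken apart at the other. Thymosins and profilin hold monomers, the Arp2/3 complex starts branches on existing filaments, Ena/VASP proteins lengthen filaments, capping proteins stop their growth, and cofilin severs them. In T cells this machinery, steered by small GTPases, shapes migration through tissue and the contact with antigen-presenting cells, while ezrin and moesin tie filaments to the membrane.

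The 3 libraries held 1253246 (colon 1), 3916649 (colon 2) and 1255946 (spleen) counted molecules (unique molecular identifiers, UMIs), with a median of 1767, 2026.5 and 1847 UMIs per cell in that order. Foxp3 was found in every library at 452, 306 and 282 counts per 1000000 UMIs (CPM), and Cd4 at 640, 905 and 306 CPM, again in that order. Ribosomal protein genes took 17.6% and 16.3% of UMIs in colon 1 and colon 2 and 28.5% in spleen, so CPM values of all other genes are pushed up in colon relative to spleen. Colon 1 and colon 2 shared 9 cell barcodes, colon 1 and spleen 5, and colon 2 and spleen 11. With 1 spleen library there is no test across animals. Each ratio below is a colon library over the same spleen library, in log2, with a 95% interval that covers counting error only.

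The actin genes together made up 5.79% and 5.36% of all UMIs in colon 1 and colon 2, against 4.72% in spleen. These totals include ribosomal protein genes (17.6%, 16.3% and 28.5% in colon 1, colon 2 and spleen), which lowers the spleen share most. A share over the remaining UMIs was not computed, so a higher actin total in colon cannot be read from these values. Of the 40, 39 reached 50 CPM in spleen or in both colon libraries, and Wasf2, a subunit of the WAVE complex that switches on Arp2/3, did not (13.6, 14.0 and 15.1 CPM in colon 1, colon 2 and spleen). Among those 39, 3 (7.69%) exceeded spleen by 2-fold or more in both colon libraries (Capg, Ezr and Arpc3), as did 11.7% of all 3482 genes that reached the same level. In the other direction 2 (5.13%) were at least 2-fold lower (Evl and Rhoh), as were 4.45% of all such genes. Evl passed the level of 50 CPM only through spleen, where it is high. Both shares among the members lie near these backgrounds. The interval lay above 0 in both colon libraries for 15 members (28.0% of all genes) and below 0 in both for 8 members (21.1% of all genes). For Tmsb4x and Msn the colon libraries lay on opposite sides of spleen with both intervals off 0. The median member had a log2 ratio of 0.15 in colon 1 and 0.29 in colon 2, against 0.03 and 0.05 over all genes that reached the level. When ribosomal protein genes were left out of the totals, the median of all genes, as the mean of both colon ratios, stood at -0.20 in place of 0.02 and that of the members at -0.02 in place of 0.20. By that mean, 17 members lay above 0 and 22 below it in that scaling, against 28 and 11 with all genes in the totals, so the direction of small differences depends on the scaling. Intervals in both colon libraries then lay above 0 for 13 members, without Cfl1 and Rac1, and below 0 for 11, with Actr3, Arpc5 and Myh9 added to the 8.

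**Figure D1:**
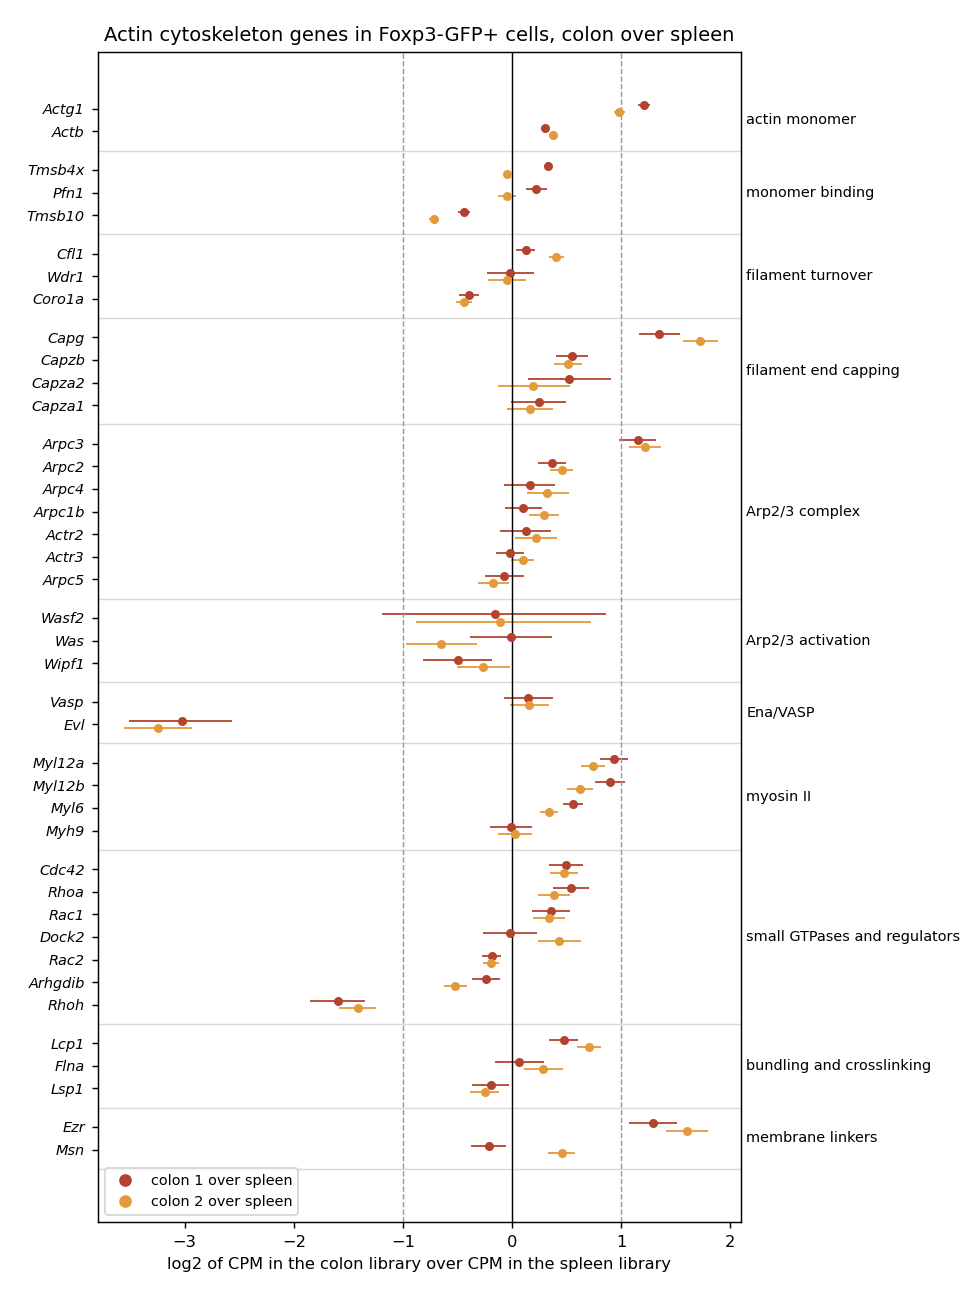
Log2 ratio of CPM in each colon library over the spleen library for all 40 genes, grouped by role from top to bottom; bars are 95% intervals of counting error and the dashed lines mark 2-fold. Evl lies furthest from 0, at -3.02 and -3.24, while its relative Vasp lies at 0.15 and 0.16.

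Windows of 300 bases at the start sites of the members the results turn on are printed here, from 250 bases before the start to 50 after it, from RefSeq on GRCm38.p6 and 5′ to 3′ on the strand of the gene. They are shown so that the start regions of members higher and lower in colon can be compared. Of the 40 members, 36 matched by symbol, with 47 windows. No window was at hand for Actb, Rac1, Rac2 and Lsp1, so their start regions were not searched. Capitals in the Actg1 window mark a CArG box, the site read by serum response factor, which controls many actin genes. In the other windows they mark CACCC or its reverse complement GGGTG, letters that Krüppel-like factors can bind. The Actg1 window is chr11:120348446-120348745 on the minus strand, Capg is chr6:72549397-72549696 on the plus strand and Ezr is chr17:6782731-6783030 on the minus strand. Arpc3 is chr5:122391628-122391927, Rhoh is chr5:65863334-65863633 and Evl, of whose start windows the upstream one is shown, is chr12:108554470-108554769, all on the plus strand.
Actg1: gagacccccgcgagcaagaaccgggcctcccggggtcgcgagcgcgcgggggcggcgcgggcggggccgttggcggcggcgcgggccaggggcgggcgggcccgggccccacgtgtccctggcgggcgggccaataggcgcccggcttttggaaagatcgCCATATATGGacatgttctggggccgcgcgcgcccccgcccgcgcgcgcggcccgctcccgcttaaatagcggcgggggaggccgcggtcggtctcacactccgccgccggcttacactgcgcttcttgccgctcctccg
Capg: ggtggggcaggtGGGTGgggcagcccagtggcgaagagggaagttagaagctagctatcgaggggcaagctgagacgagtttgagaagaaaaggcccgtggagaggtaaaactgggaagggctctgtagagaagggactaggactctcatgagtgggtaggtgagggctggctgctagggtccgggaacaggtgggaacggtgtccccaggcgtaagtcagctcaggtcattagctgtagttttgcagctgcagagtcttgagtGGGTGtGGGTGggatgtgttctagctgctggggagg
Ezr: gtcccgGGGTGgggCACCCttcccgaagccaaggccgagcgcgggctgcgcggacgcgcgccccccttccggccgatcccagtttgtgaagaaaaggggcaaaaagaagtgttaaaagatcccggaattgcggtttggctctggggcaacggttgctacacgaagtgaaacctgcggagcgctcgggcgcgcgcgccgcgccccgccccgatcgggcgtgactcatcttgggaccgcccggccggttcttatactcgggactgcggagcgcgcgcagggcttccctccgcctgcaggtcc
Arpc3: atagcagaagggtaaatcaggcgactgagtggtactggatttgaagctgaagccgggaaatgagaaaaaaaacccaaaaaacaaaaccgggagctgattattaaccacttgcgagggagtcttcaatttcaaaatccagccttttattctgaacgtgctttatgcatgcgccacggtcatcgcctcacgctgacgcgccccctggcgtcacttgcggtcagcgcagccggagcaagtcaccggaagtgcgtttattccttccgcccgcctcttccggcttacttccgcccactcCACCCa
Evl: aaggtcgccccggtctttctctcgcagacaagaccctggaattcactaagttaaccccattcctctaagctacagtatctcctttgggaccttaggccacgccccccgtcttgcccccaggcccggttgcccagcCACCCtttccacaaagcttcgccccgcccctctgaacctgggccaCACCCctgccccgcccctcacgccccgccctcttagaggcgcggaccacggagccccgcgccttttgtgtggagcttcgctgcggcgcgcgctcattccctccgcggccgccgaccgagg
Rhoh: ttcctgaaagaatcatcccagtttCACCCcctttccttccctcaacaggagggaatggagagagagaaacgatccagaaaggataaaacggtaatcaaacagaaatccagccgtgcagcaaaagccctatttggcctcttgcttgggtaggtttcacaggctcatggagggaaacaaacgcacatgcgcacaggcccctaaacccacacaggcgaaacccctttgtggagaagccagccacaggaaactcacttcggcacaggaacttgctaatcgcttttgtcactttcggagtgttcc
A CArG box was present in 535 of 32851 windows of the whole table (1.63%) and in 3 windows of members, those of Actg1, Myl6 and Arpc4. CACCC on either strand was present in 57.5% of all windows and in 36 of the 47 windows of members, among them those of Capg, Ezr and Arpc3 and those of Evl and Rhoh. The windows also differ in base composition: G and C make up 77.3% of the Actg1 window with 50 CpG pairs, 58.0% of the Capg window with 7 and 68.0% of the Ezr window with 38. These matches describe letters only, and no binding was measured here.

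The cytoplasmic actins stood in a different balance in the colon. Actg1, gamma-actin (chr11:120345690-120348542), had 7050 CPM in colon 1, 6013 CPM in colon 2 and 3038 CPM in spleen, with log2 ratios of 1.21 (interval 1.16 to 1.27) and 0.98 (0.94 to 1.03), the second just short of 2-fold. Actb, beta-actin (chr5:142903115-142906754), had 9713, 10204 and 7874 CPM in that order, with log2 ratios of 0.30 and 0.37. Gamma-actin thus made up 42.1% of the UMIs of the pair in colon 1 (interval 41.4% to 42.7%), 37.1% in colon 2 (36.7% to 37.5%) and 27.8% in spleen (27.1% to 28.6%). This share does not depend on how libraries are scaled. The intervals of the libraries do not overlap, those of the colon libraries included, whose difference from each other is smaller than that of either from spleen. The shift was spread over cells: among cells with at least 10 UMIs of the pair, the median cell had 41.7% gamma-actin in colon 1 (567 cells), 36.8% in colon 2 (1691 cells) and 25% in spleen (489 cells). The spleen median was exceeded by 82.0% of these cells in colon 1 and 75.6% in colon 2.

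Of the monomer-binding genes, Tmsb10, thymosin beta-10, was lower in the colon, with 3539 CPM in colon 1, 2919 CPM in colon 2 and 4793 CPM in spleen (log2 -0.44 and -0.72). Tmsb4x, thymosin beta-4, had 15549, 11988 and 12356 CPM in that order, which places colon 1 above spleen (0.33, interval 0.30 to 0.36) and colon 2 slightly below it (-0.04, -0.07 to -0.02). As a share of both thymosins, Tmsb10 held 18.5% in colon 1, 19.6% in colon 2 and 27.9% in spleen, so the colon libraries differed less from each other in this balance than either did from spleen. Pfn1, profilin, which loads actin monomers with ATP, had log2 ratios of 0.22 in colon 1 and -0.04 in colon 2. Among genes of filament turnover, Coro1a, a coronin of blood cells that binds filaments and Arp2/3, was lower in both colon libraries (1262, 1221 and 1657 CPM in colon 1, colon 2 and spleen), with log2 ratios of -0.39 and -0.44. Cfl1, cofilin, had 0.13 and 0.41, and Wdr1, its helper in taking filaments apart, -0.01 and -0.05.

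Among genes for filament-end capping, Capg was the member furthest above spleen. This gelsolin-family protein caps filaments without severing them, and the gene (chr6:72544391-72562983) had 675 CPM in colon 1, 875 CPM in colon 2 and 264 CPM in spleen. The log2 ratios were 1.35 (interval 1.17 to 1.54) and 1.73 (1.56 to 1.89). After each cell was thinned to 1000 UMIs, at least 1 UMI of Capg was seen in 43.9% of cells of colon 1, 48.0% of colon 2 and 18.4% of spleen, and before thinning in 60.3%, 66.6% and 28.5%. The sort was for 1 cell type, so the share that free RNA alone would give could not be read from another cell type. The classical capping protein differed less: its beta subunit Capzb had log2 ratios of 0.55 and 0.51. Its alternative alpha subunits Capza1 and Capza2 had 232, 219 and 196 CPM and 113, 90.4 and 78.8 CPM in colon 1, colon 2 and spleen. Capza1 held 67.2%, 70.8% and 71.3% of the alpha pair in that order, with overlapping intervals.

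The Arp2/3 complex has 7 subunits, and 1 of them, Arpc3, stood apart. Arpc3 (chr5:122391878-122414184) had 733 CPM in colon 1, 767 CPM in colon 2 and 330 CPM in spleen, with log2 ratios of 1.15 (interval 0.98 to 1.32) and 1.22 (1.07 to 1.37). The other subunits lay between -0.07 and 0.37 in colon 1 and between -0.17 and 0.45 in colon 2. Arpc3 made up 19.3% of the UMIs of the 7 subunits in colon 1 (interval 18.2% to 20.4%) and 19.0% in colon 2 (18.4% to 19.6%), against 10.5% in spleen (9.55% to 11.5%). Arpc5 made up 10.7%, 9.35% and 13.6% in colon 1, colon 2 and spleen, and Actr3, one of the actin-related core proteins, 19.98%, 20.4% and 24.5%. A larger share of Arpc3 lowers the other shares, and how much of these falls it accounts for was not computed. The log2 ratios to spleen were -0.07 and -0.17 for Arpc5 and -0.02 and 0.10 for Actr3 in colon 1 and colon 2. Without ribosomal protein genes in the totals they were -0.28 and -0.40 for Arpc5 and -0.22 and -0.13 for Actr3. The intervals of both genes then lay wholly below spleen in both colon libraries. When ribosomal protein genes were left out of the totals, Arpc3 had log2 ratios of 0.95 and 0.99 and no longer reached 2-fold in either colon library. Its activators were level or lower in colon: Wipf1, the partner that stabilises WASP, had -0.50 and -0.26, and Was, WASP itself, -0.01 (-0.39 to 0.37) and -0.65 (-0.97 to -0.32).

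**Figure D2:**
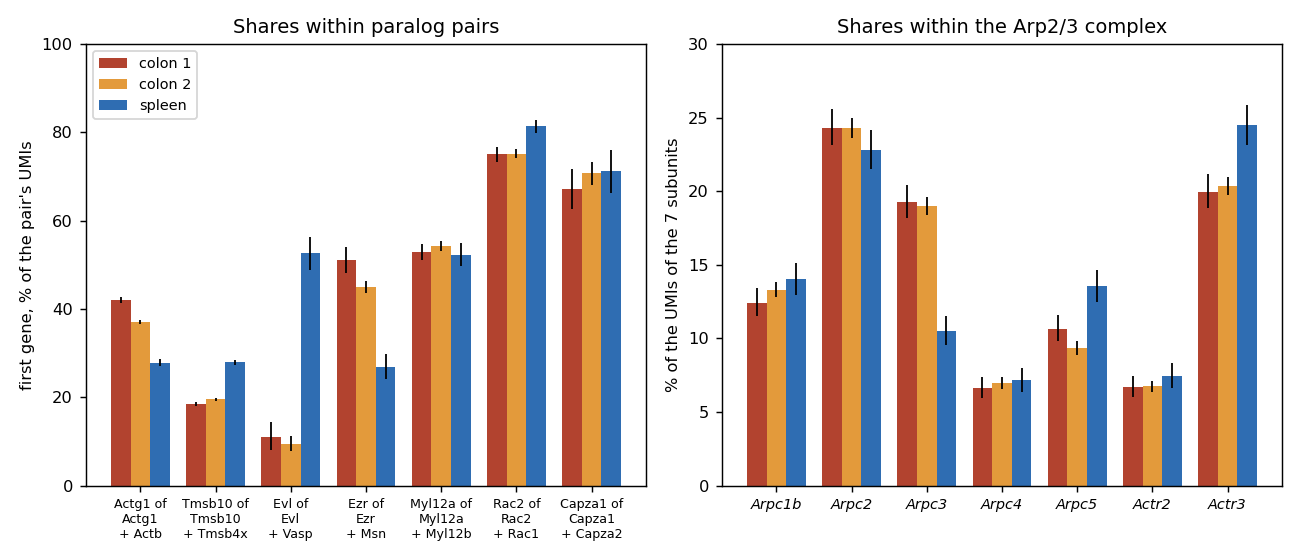
Left, the UMIs of the first gene as a percentage of each paralog pair; right, each subunit as a percentage of the UMIs of the 7 Arp2/3 subunits, in colon 1, colon 2 and spleen from left to right, with 95% exact binomial intervals. Evl holds 10.9% and 9.50% of its pair with Vasp in colon 1 and colon 2 and 52.6% in spleen, and Arpc3 holds 19.3% and 19.0% of its complex in the colon libraries and 10.5% in spleen.

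Of the Ena/VASP genes, which encode proteins that lengthen filaments at the leading edge, Evl was much lower in colon Tregs, while the intervals of Vasp spanned 0. Evl (chr12:108554720-108688516) had 35.1 CPM in colon 1 (44 UMIs), 30.1 CPM in colon 2 (118 UMIs) and 285 CPM in spleen (358 UMIs). The log2 ratios were -3.02 (interval -3.51 to -2.57) and -3.24 (-3.55 to -2.94), which is 8.12-fold and 9.46-fold lower. Vasp had 286, 287 and 257 CPM in the same order. Evl thus made up 10.9% of the pair in colon 1, 9.50% in colon 2 and 52.6% in spleen. On thinned cells, 1.80% of cells of colon 1, 2.01% of colon 2 and 16.6% of spleen had a UMI of Evl, and before thinning 3.88%, 3.33% and 25.4%.

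The myosin light chains were higher in the colon, and the interval of the heavy chain spanned 0. Myl12a, a regulatory light chain of non-muscle myosin, had 1159 CPM in colon 1, 1014 CPM in colon 2 and 607 CPM in spleen (log2 0.93 and 0.74), and Myl12b had 1031, 852 and 553 CPM (0.90 and 0.63). Both genes lie side by side on chromosome 17, and the annotation holds a read-through gene over both, so that the counts of either may include reads of the other. Myl12a held 52.9%, 54.3% and 52.3% of the pair in colon 1, colon 2 and spleen, with overlapping intervals. Myl6, the essential light chain, had 0.56 and 0.34, and Myh9, the heavy chain, -0.01 and 0.02, or -0.21 and -0.20 without ribosomal protein genes in the totals.

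The small GTPases and their regulators split by member. Rhoh, a protein of blood cells that is needed for T-cell receptor signalling although it lacks GTPase activity, was lower in the colon (chr5:65861213-65896700), with 136 CPM in colon 1, 155 CPM in colon 2 and 412 CPM in spleen. Its log2 ratios were -1.60 (interval -1.85 to -1.34) and -1.41 (-1.59 to -1.24). Rhoa, which drives contraction, had 0.54 and 0.38, and Cdc42, which drives thin protrusions, 0.50 and 0.47. Of the Rac genes, Rac1, which is found in most tissues, had 493 CPM in colon 1, 488 CPM in colon 2 and 385 CPM in spleen, and Rac2, which is restricted to blood cells, had 1482, 1478 and 1686 CPM. Rac2 made up 75.03% of the pair in colon 1 (interval 73.3% to 76.7%), 75.2% in colon 2 (74.2% to 76.1%) and 81.4% in spleen (79.8% to 82.9%). Without ribosomal protein genes in the totals, the interval of Rac1 spanned 0 in both colon libraries, and Rac2 lay further below spleen, at -0.39 and -0.42. Arhgdib, an inhibitor that holds such GTPases in the cytosol, had -0.24 and -0.52, and Dock2, a Rac activator of lymphocytes, -0.02 in colon 1 and 0.43 in colon 2.

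Of the genes for bundling and crosslinking proteins, Lcp1, L-plastin, had 925 CPM in colon 1, 1085 CPM in colon 2 and 666 CPM in spleen (log2 0.47 and 0.70). Lsp1, a filament-binding protein of leukocytes, had -0.19 and -0.25, and Flna, filamin A, 0.07 and 0.29. The membrane linkers differed from each other. Ezr, ezrin (chr17:6738041-6782784), had 485 CPM in colon 1, 603 CPM in colon 2 and 198 CPM in spleen, with log2 ratios of 1.29 (interval 1.08 to 1.51) and 1.60 (1.42 to 1.80). Msn, moesin, had 464, 738 and 538 CPM, which places colon 1 below spleen (-0.21, -0.38 to -0.05) and colon 2 above it (0.46, 0.33 to 0.58). Ezr made up 51.1% of the pair in colon 1, 45.0% in colon 2 and 26.9% in spleen. Some members overlap a gene on the opposite strand, among them Ezr with Sytl3, Evl with Degs2, Coro1a with Bola2, Arpc1b with Pdap1 and Capza1 with St7l. These neighbours had 153, 3, 710, 885 and 146 UMIs over all libraries in that order. Whether strand was used in counting is not stated.

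Listed genes of other cell types were low as sums in all 3 libraries, though some were higher in colon. Listed markers of colon epithelium, where ezrin is abundant, summed to 37.5 CPM in colon 1, 64.6 CPM in colon 2 and 58.1 CPM in spleen over 8 genes, with Phgr1 and Muc2 at 0 everywhere. Those of macrophages and dendritic cells, which express Capg, summed to 234, 230 and 105 CPM over 9 genes, of which Cst3 alone gave 221, 199 and 102 CPM and Csf1r 0. Some of the rest were seen in colon only: Apoe had 9, 64 and 0 UMIs in colon 1, colon 2 and spleen, and Lyz2 3, 14 and 0. C1qa had 1, 16 and 0 UMIs, C1qb 0, 17 and 0, and Cd68 2, 8 and 0. Adgre1 (0, 0 and 2) and Itgax (1, 1 and 2) were not higher in colon. In the B-cell list, which summed to 69.4, 107 and 66.9 CPM, H2-Eb1 had 24, 71 and 1 UMIs and H2-Aa 7, 77 and 2. Of the CD8 and natural killer genes (154, 117 and 193 CPM), Nkg7 had 99, 216 and 18 UMIs and Ccl5 31, 66 and 142. Jchain, of plasma cells, had 14, 19 and 0 UMIs. When cells with UMIs of at least 2 markers of another cell type were left out (19, 51 and 14 cells of colon 1, colon 2 and spleen), Capg, Ezr, Arpc3, Evl and Rhoh kept their 2-fold calls and Actg1 gained one. Listed genes of dissociation and heat shock summed to 9373, 10640 and 5307 CPM in colon 1, colon 2 and spleen. Their part in the differences of the actin genes was not tested.

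To see how the members vary within a tissue, cells were clustered without the 40 genes. Of the spleen cells, 605 of 617 fell into 1 cluster with Igfbp4 and Nrn1 among its leading genes, which held 11 cells of colon 1 and 25 of colon 2. Most colon cells fell into 4 clusters, led by Itgb5 and Emp1 (242 cells of colon 1 and 599 of colon 2), by Igfbp7 and Apex1 (75 and 260), by genes among which were Penk and Il1rl1 (170 and 526), and by Ccl4, Iigp1 and Tbx21 (42 and 147). A small cluster was led by the cell division genes Ccna2 and Aurkb (14 and 28). A further cluster, led by Ccr7 and Hey1 with Bcl6 among its first 10 genes, held 65 cells of colon 1 and 187 of colon 2, and 8 of 14 listed genes of resting lymphoid T cells were at least 2-fold higher in it than in the other cells.

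Evl in colon Tregs sat mainly in the Ccr7 and Bcl6 cluster. It had 243 CPM there in colon 1 (30 UMIs, interval 164 to 346) and 150 CPM in colon 2 (61 UMIs, 115 to 192), against 8.10 CPM (9 UMIs) and 13.03 CPM (45 UMIs) in the colon cells outside it and outside the spleen cluster. Spleen cells of the spleen cluster had 294 CPM. The cluster held 68.2% of all Evl UMIs of colon 1 and 51.7% of those of colon 2, with 10.5% and 10.6% of the cells. In the Ccl4 and Tbx21 cluster of colon 2, 0 UMIs of Evl were seen in 147 cells, where the interval reaches up to 10.4 CPM. For the colon cells outside the Ccr7 and Bcl6 cluster and outside the spleen cluster, the log2 ratio to spleen was -5.14 (interval -6.28 to -4.20) in colon 1 and -4.45 (-4.93 to -4.00) in colon 2.

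Capg ran the other way, with 291 CPM in that cluster in colon 1 and 459 CPM in colon 2, against 720 and 932 CPM in the other colon cells. The log2 ratios of the cluster to the other colon cells were -1.31 (interval -1.83 to -0.82) and -1.02 (-1.24 to -0.81). Actg1 was lower in the cluster as well (4301 and 3872 CPM, against 7401 and 6314 CPM in the other colon cells), and so were Actb (6379 and 7045 CPM, against 10134 and 10592 CPM) and Tmsb4x (10341 and 8103 CPM, against 16191 and 12511 CPM), each in colon 1 and colon 2. Tmsb10 was slightly higher in it (0.25 and 0.33 in log2). Ezr did not share this pattern: it had 493 CPM in the cluster in colon 1 and 557 CPM in colon 2, against 483 and 609 CPM in the other colon cells, with intervals of both ratios that span 0, and 194 CPM in the spleen cells of the spleen cluster. Arpc3 had 703 and 616 CPM in the cluster, against 740 and 789 CPM, and Rhoh had 178 and 189 CPM, against 127 and 148 CPM. The interval of the Arpc3 ratio spanned 0 in colon 1 (-0.41 to 0.25) and lay below 0 in colon 2 (-0.55 to -0.17). Those of Rhoh spanned 0 in colon 1 (-0.23 to 1.14) and in colon 2 (-0.01 to 0.70). In the 25 cells of colon 2 that fell into the spleen cluster, Ezr had 581 CPM (32 UMIs, interval 397 to 820), against 194 CPM (170 to 221) in its spleen cells, whereas Actg1 had 3014 CPM, against 2943 CPM, and Evl 218 CPM (113 to 381), against 294 CPM.

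**Figure D3:**
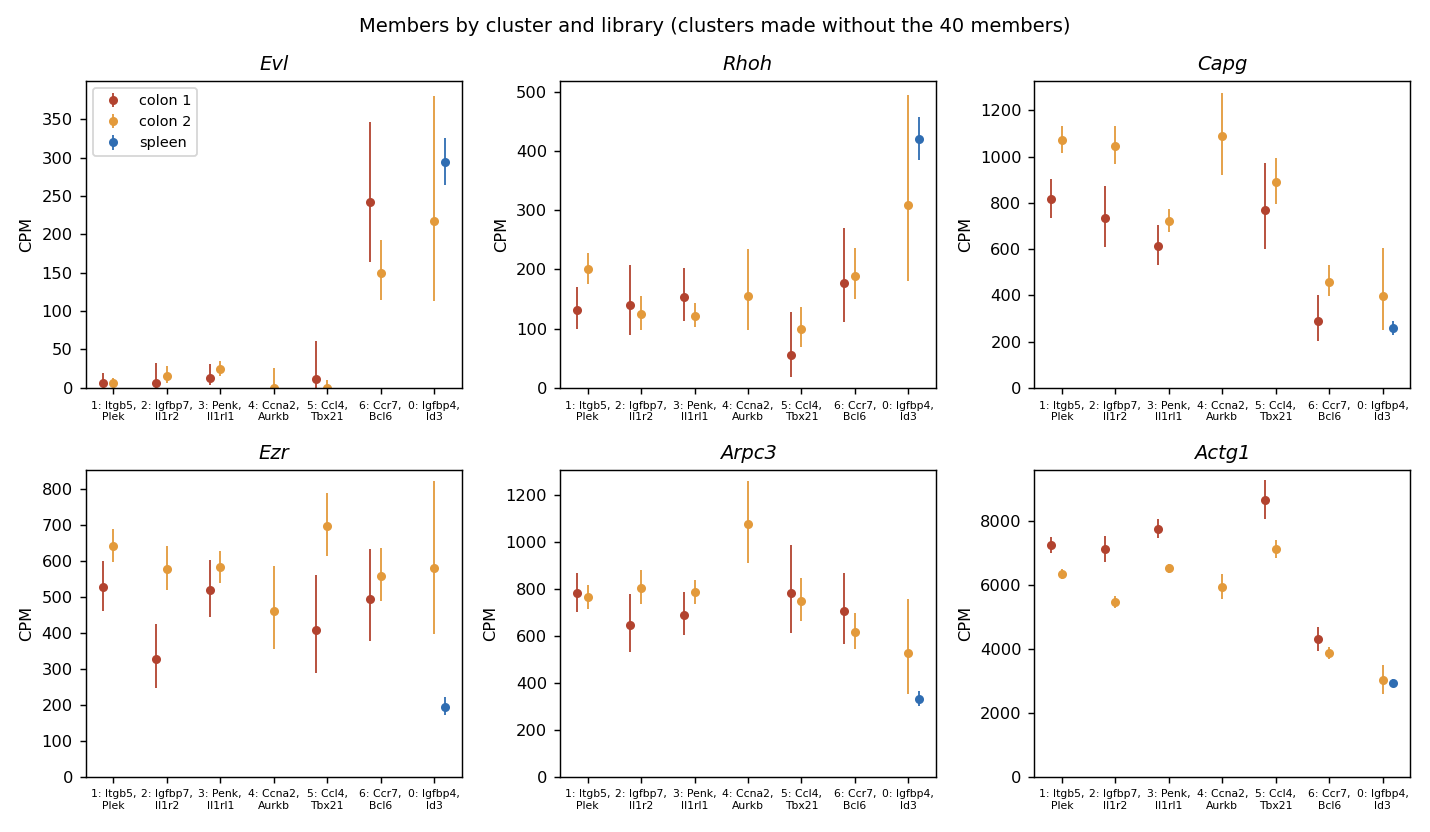
CPM of 6 members in each cluster and library, for clusters with at least 20 cells of the library; bars are 95% Poisson intervals and the names under the axis are leading genes of each cluster. Evl is high in the Ccr7 and Bcl6 cluster of both colon libraries (243 and 150 CPM) and in spleen cells (294 CPM), while Ezr in that cluster (493 and 557 CPM) lies close to the other colon cells (483 and 609 CPM).

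Within each library the actin genes also differed between cells with and cells without a UMI of S100a4, a calcium-binding gene that marks effector-like Tregs. This gene was chosen after the values were seen. In spleen, 155 cells had a UMI of S100a4 and 462 had none. Cells with S100a4 were deeper, with medians of 1819 against 1636.5 UMIs in colon 1, 2077.5 against 1898.5 in colon 2 and 2018 against 1797 in spleen. The cells without may thus include some in which S100a4 was missed. The interval of the ratio, cells with over cells without, lay above 0 for 30 of 39 members in spleen, where it did for 22.6% of all genes, and below 0 for 2 members, Evl and Tmsb10, where it did for 9.45% of all genes. In colon 1 it lay above 0 for 17 members (13.0% of all genes) and below 0 for 2, Evl and Ezr (14.3%). In colon 2 it lay above 0 for 26 (15.6%) and below 0 for 2, Evl and Wipf1 (20.3%). Abundant genes have narrower intervals, so these counts favour the members. The medians do not depend on that: the median log2 ratio of the members was 0.21 in colon 1, 0.25 in colon 2 and 0.39 in spleen, against -0.01, -0.04 and 0.15 over all genes. Ribosomal protein genes took 17.2%, 15.8% and 22.4% of UMIs in the cells with S100a4 of colon 1, colon 2 and spleen, and 18.9%, 17.9% and 30.9% in those without. Their part in the ratios was not tested.

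The genes that set the tissues apart did not all follow this split. Capg did, with 485 CPM in spleen cells with S100a4 and 178 CPM in those without (log2 1.44, interval 1.13 to 1.76), and so did Lcp1, with 990 and 540 CPM (0.87, 0.67 to 1.07) and Actg1, with 3883 and 2709 CPM (0.52, 0.42 to 0.62). Next after Capg in spleen came Arpc1b (1.02, 0.77 to 1.26), Dock2 (0.96, 0.60 to 1.32) and Arpc5 (0.95, 0.70 to 1.20), none of which reached 1.5-fold between the tissues in both colon libraries, whereas Arpc3 had 0.36 (0.05 to 0.66). Evl had 136 CPM in spleen cells with S100a4 and 343 CPM in those without (-1.33, -1.80 to -0.89), and 10.6 against 109 CPM in colon 1 and 17.0 against 76.3 CPM in colon 2. Rhoh went against its difference between tissues: spleen cells with S100a4 had 576 CPM and those without 349 CPM (0.72, 0.46 to 0.98), while it was lower in colon. Ezr had 204 CPM in spleen cells with S100a4 and 196 CPM in those without, and the interval of the ratio (-0.36 to 0.46) spans 0, far below the 1.29 and 1.60 between tissues. In colon 1 Ezr was lower in cells with S100a4 (-0.31, -0.57 to -0.05), and in colon 2 its interval spanned 0 (0.09, -0.05 to 0.24). Spleen cells with S100a4 thus had Capg and Evl closer to the colon level than the other spleen cells did, and Rhoh further from it.

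**Figure D4:**
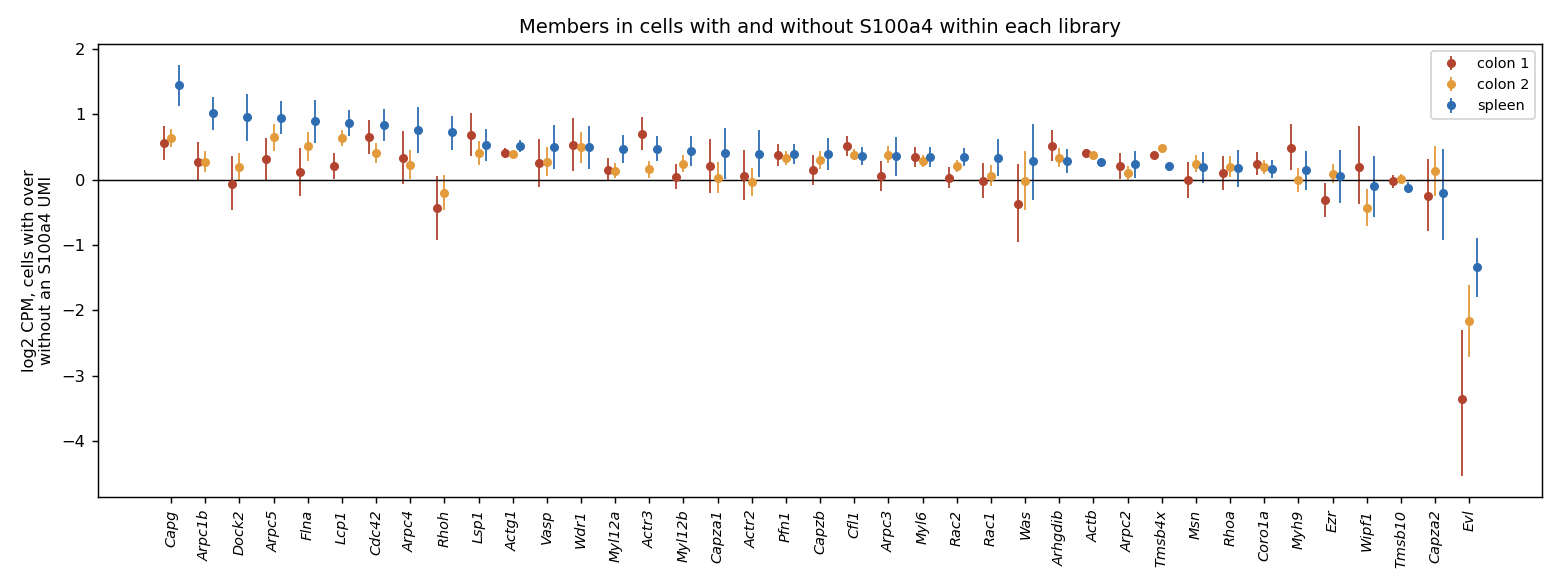
Log2 ratio of CPM in cells with over cells without a UMI of S100a4 within colon 1, colon 2 and spleen, for the 39 members that reached 50 CPM, in the order of their spleen ratio; bars are 95% intervals of counting error. Capg has the highest spleen ratio (1.44) and Evl the lowest in each library (-3.36, -2.16 and -1.33), and Rhoh is above 0 in spleen (0.72) and below it in the colon libraries (-0.44 and -0.20, with intervals that span 0).

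Detection of Ccr7, the receptor that guides T cells into lymph nodes and another marker chosen after the values were seen, went with a higher level of Evl in both colon libraries, while in spleen the interval spanned 0. Evl had 149 CPM in cells with a UMI of Ccr7 and 16.7 CPM in cells without in colon 1 (log2 3.16, interval 2.24 to 4.11), and 119 and 17.2 CPM in colon 2 (2.79, 2.25 to 3.34). In spleen it had 300.2 CPM in cells with Ccr7 and 282 CPM in cells without (0.09, -0.31 to 0.47). Cells with Ccr7 were also deeper, with medians of 1866 against 1756 UMIs in colon 1, 2170 against 2015 in colon 2 and 2029 against 1815 in spleen.

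A list of 88 further genes of the actin cytoskeleton was read beside the members. Of these, 86 were in the table and 60 reached the level, of which 6 lay 2-fold or more above spleen and 4 as far below it in both colon libraries. The share that was higher, 10%, lies near the 11.7% of all genes, and the share that was lower, 6.67%, near the 4.45% of all genes. Highest were Marcks, which crosslinks filaments at the membrane (59.8 CPM in colon 1, 65.6 CPM in colon 2 and 10.4 CPM in spleen, log2 2.53 and 2.66), and Rhoc, a close relative of Rhoa (68.6, 67.4 and 11.9 CPM, 2.52 and 2.50). Both passed the level of 50 CPM only through the colon libraries, where they are high, and their spleen values rest on few UMIs. They were followed by Vim, the intermediate filament protein vimentin (1761, 2676 and 459 CPM, 1.94 and 2.54), and Tagln2, an actin-binding transgelin (1048, 962 and 303 CPM, 1.79 and 1.67). Lowest were Actn1, alpha-actinin, which crosslinks filaments (47.9, 44.7 and 149 CPM, -1.64 and -1.74), and Arpc5l, the paralog of the Arp2/3 subunit Arpc5 (79.0, 71.7 and 196 CPM, -1.31 and -1.45). Actn1 passed the level only through spleen, where it is high. Arhgap9, which switches small GTPases off, had 86.2, 90.9 and 217 CPM (-1.33 and -1.26), and Arhgap15, which does so for Rac, 60.6, 60.5 and 122 CPM (-1.01 and -1.01). The median of the list was -0.02 in colon 1 and 0.15 in colon 2.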

How the data were processed

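Single Foxp3-GFP+ cells were sequenced by inDrops on a NextSeq500, per the labels' protocols. TopHat2, SAMtools and the mm10 build are listed in the submitters' processing notes. For annotation, UMI collapsing and the role of each tool, details were not given in the sources used here. As the unit, the authors deposited whole-number UMI counts per gene and cell. All columns were matched to labelled cells (0 left out). Here counts were summed per library and divided by the total over all genes (CPM). Each colon library was divided by spleen, with exact conditional binomial 95% intervals, Poisson intervals for CPM and Clopper-Pearson intervals for shares. Genes with at least 50 CPM in spleen or in both colon libraries were read, and 2-fold in both colon libraries was the threshold. A gene with 0 UMIs was set to 3 counts in ratios. No p-value was computed, since each library is 1 sample.

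Clusters used scanpy 1.11.5 (10000 UMIs per cell, log scale, 2000 variable genes without the members, 20 components, 15 neighbours, Leiden resolution 0.8). No doublet caller was run, and cells with 2 markers of another type were left out as an alternative. Cells under 1000 UMIs (9, 28 and 4 of colon 1, colon 2 and spleen) were left out of thinned shares. Positions are from GENCODE vM21 on mm10, promoter windows from RefSeq on GRCm38.p6. Alternatives were edgeR 4.0.16 TMM factors in R 4.3.3, median of ratios, other totals, cells, levels and folds, and leaving out a colon library. Members with at least 1.5-fold in both colon libraries and paralog pairs are given per library, the others by ranges or ratios, apart from Coro1a, Lcp1 and Wasf2, which were added after their values were seen. The members, lists and rules were chosen with earlier results of these data known.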

Additional observations from a re-analysis of the deposited data

Results flagged for a closer look

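Members for which the colon libraries lay on opposite sides of spleen, with both intervals off 0, were Tmsb4x and Msn. Tmsb4x was lower in colon 2 than in colon 1, with a log2 ratio of colon 2 over colon 1 of -0.38 (interval -0.40 to -0.35). Msn was higher in colon 2, with a log2 ratio of 0.67 (0.54 to 0.80). Over the 39 members that reached the level, the standard deviation of the log2 ratio between the colon libraries was 0.25, and over all genes at that level 0.43. The difference was not tested, since each is 1 library.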

How the results depend on the processing

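Capg, Ezr, Evl and Rhoh kept their 2-fold calls in all alternatives run. Arpc3 lost its call with totals without ribosomal protein genes. Actg1 reached 2-fold under TMM and median of ratios scaling, with equal weight per cell, without cells with 2 markers of another type, and without colon 2. At 1.5-fold in place of 2-fold, 6 members were higher, Actg1, Myl12a and Myl12b added. Without ribosomal protein genes in the totals, Actg1 had log2 ratios of 1.01 and 0.76 in colon 1 and colon 2. Myl12a then had 0.73 and 0.51 and Myl12b 0.70 and 0.40, which is below 1.5-fold in colon 2. With totals without ribosomal protein genes the median log2 ratio, as the mean of both colon libraries, was -0.0195 in place of 0.20 for members and -0.16 in place of 0.05 for the other actin genes. Leaving out a colon library gave 3 to 4 members higher and 2 lower, medians of 0.15 to 0.29 for members, and -0.0221 to 0.15 for the other actin genes. Of 360 values recomputed for the 40 members, 309 moved by less than the counting error of the colon 1 ratio (the half-width of its interval) and 51 by more. None of the 5 members with a 2-fold call changed sign in these alternatives, but with totals without ribosomal protein genes the mean ratio of 11 others did (Tmsb4x, Pfn1, Capza1, Arpc1b, Actr2, Actr3, Vasp, Myh9, Dock2, Flna and Msn), and in the other alternatives that of at most 4. At Leiden resolution 0.5 the log2 ratio of Evl between the Bcl6-high cluster and the other colon cells was 4.19, against 4.21. No paired analysis was possible because spleen is 1 library, which leaves fewer than 2 pairs, and no test was made. Evl rests on 44 UMIs in colon 1 and Wasf2 on 17, which limits their precision.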
